A study of Homo sapiens with 24 samples.

Results

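The genes described here are the nuclear genes for subunits of complexes II, III, IV and V of oxidative phosphorylation. They were taken by symbol from a table of 60564 rows: SDHA to SDHD, CYC1, all symbols that begin with UQCR, COX4 to COX8 subunits, and all symbols that begin with ATP5, without rows described as pseudogenes. The rule names symbols and no measured value, but it was set with earlier results of these data known. It gave 50 rows, of which 5 belonged to complex II, 10 to complex III, 17 to complex IV and 18 to complex V.

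Electrons from metabolism enter the inner mitochondrial membrane through complex I or complex II (succinate dehydrogenase), pass through complex III (the cytochrome bc1 complex) to cytochrome c and on to complex IV (cytochrome c oxidase), where oxygen is reduced. Complexes I, III and IV pump protons, and complex V (ATP synthase) uses the proton gradient to make ATP. Complex II is built from nuclear genes alone, whereas complexes III, IV and V also hold subunits encoded by mitochondrial DNA, so nuclear and mitochondrial transcripts have to supply matching parts.

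The study altered NDUFS6, which encodes an accessory subunit of complex I, in SK-N-BE(2) and SH-SY5Y, established human lines from neuroblastoma, and sequenced their RNA. Cells were infected with lentivirus and selected with puromycin, which gave 8 groups of 3 libraries. Each line had cells with a short hairpin RNA against NDUFS6 (knockdown) and an empty vector for it (knockdown control), and cells with the full NDUFS6 coding sequence (overexpression) and its own empty vector (overexpression control). All groups, controls included, had thus been infected and selected, and all carry the same batch label. The labels call the 3 libraries biological replicates and do not say whether they came from separate infections, or whether a line was clonal. The p-values therefore rest on how these libraries spread, and that spread may in part be technical.

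Values are FPKM, fragments scaled by transcript length and by the mapped total of the library. FPKM is corrected for length, so levels can be compared between genes, but the number of reads behind a value is unknown. Summed over all rows, FPKM ranged from 249708 to 276091 per library. NDUFS6 itself was at 1.09, 1.61 and 1.3 FPKM in the SK-N-BE(2) knockdown against 9.29, 12.2 and 11.9 in its control, and at 3.11, 3.98 and 4.98 in the SH-SY5Y knockdown against 11.2, 11.1 and 12.1. With the overexpression construct it was at 14.9, 17.8 and 19.0 FPKM in SK-N-BE(2) against 11.8, 13.9 and 12.7, and at 214, 211 and 199 in SH-SY5Y against 10.2, 11.5 and 11.2. The overexpression arms thus differ widely in the level of the construct's own gene, with a log2 change of 0.39 in SK-N-BE(2) and 4.13 in SH-SY5Y. Of 9 markers of sympathetic neuroblastoma cells, all reached 1 FPKM in the SK-N-BE(2) groups and 8 did in the SH-SY5Y groups, where TH, the enzyme that begins catecholamine synthesis, was at or near 0. Markers of endothelial, epithelial, muscle and Schwann cells summed to at most 2.88 FPKM in any library.

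Of the 50 rows, 42 passed the filter of at least 1 FPKM in at least 3 of the 24 libraries and were tested. The 8 others were tissue-restricted or minor copies. COX6A2 and COX7A1, the isoforms of heart and skeletal muscle, peaked at 0.221 and 0.301 FPKM. COX6B2 reached 0.647 FPKM and COX8C 0.272 FPKM, while COX7B2 was listed at 0 in every library. The read-through ATP5J2-PTCD1 peaked at 0.758 FPKM, ATP5L2 at 0.175 FPKM, and a second row named SDHD, a gene model that overlaps the main one, at 0.229 FPKM. Both lines therefore carried the widely expressed version of each complex IV subunit with isoforms. COX4I2 passed only through the control and overexpression libraries of SH-SY5Y, and is described below.

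Levels of the tested subunits spanned a wide range in the 6 empty-vector libraries of each line. ATP5B, which encodes the catalytic beta subunit of ATP synthase, was the highest, at a mean of 234 FPKM in SK-N-BE(2) and 205 FPKM in SH-SY5Y. UQCRH, the hinge protein beside cytochrome c1, led complex III at 109 and 147 FPKM, and COX8A led complex IV at 99.8 and 103 FPKM. Complex II had the lowest sum of the 4 complexes in each group. Its leading member was the membrane anchor SDHD at 22.2 FPKM in SK-N-BE(2), and SDHB, the iron-sulfur subunit, at 10.9 FPKM in SH-SY5Y. SDHD (10.7 FPKM) lay so close to SDHB in SH-SY5Y that their libraries overlapped. At the low end stood ATP5S (2.57 and 2.65 FPKM) and UQCRHL (4.01 and 5.64 FPKM), an intronless near-copy of UQCRH whose reads cannot be told from those of its parent with certainty.

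Subunit levels differed between the lines. Between the empty-vector libraries of SK-N-BE(2) and SH-SY5Y, 32 of the 42 tested genes differed at an adjusted p under 0.05 (limma with Benjamini-Hochberg adjustment over all tested genes, the rule for every call here), 17 higher in SK-N-BE(2) and 15 lower. In all tested genes 77.3% were called in this comparison, 33.5% higher and 43.8% lower, a share close to that of the subunits. COX4I2, among the 15, passed the filter only through SH-SY5Y libraries. The line differences ran in opposite directions inside a complex. In complex V, ATP5F1, which encodes peripheral-stalk subunit b, lay at 47.0 to 63.3 FPKM in SK-N-BE(2) controls and 23.9 to 25.7 in SH-SY5Y controls, a log2 difference of 1.11. ATP5C1, the gamma subunit of the rotor shaft, was likewise higher in SK-N-BE(2) (70.2 against 39.0 FPKM, log2 difference 0.83), while ATP5A1, the alpha subunit, was lower (21.4 against 34.7 FPKM, -0.67). In complex III the core subunits split: UQCRC1 was lower in SK-N-BE(2) (11.3 against 22.2 FPKM, -0.92) and UQCRC2 higher (log2 difference 0.44). COX6B1, a complex IV subunit on the face where cytochrome c docks, was at 18.5 FPKM against 38.6 (-1.04), and SDHD of complex II at 22.2 against 10.7 (0.99).

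**Figure D1:**
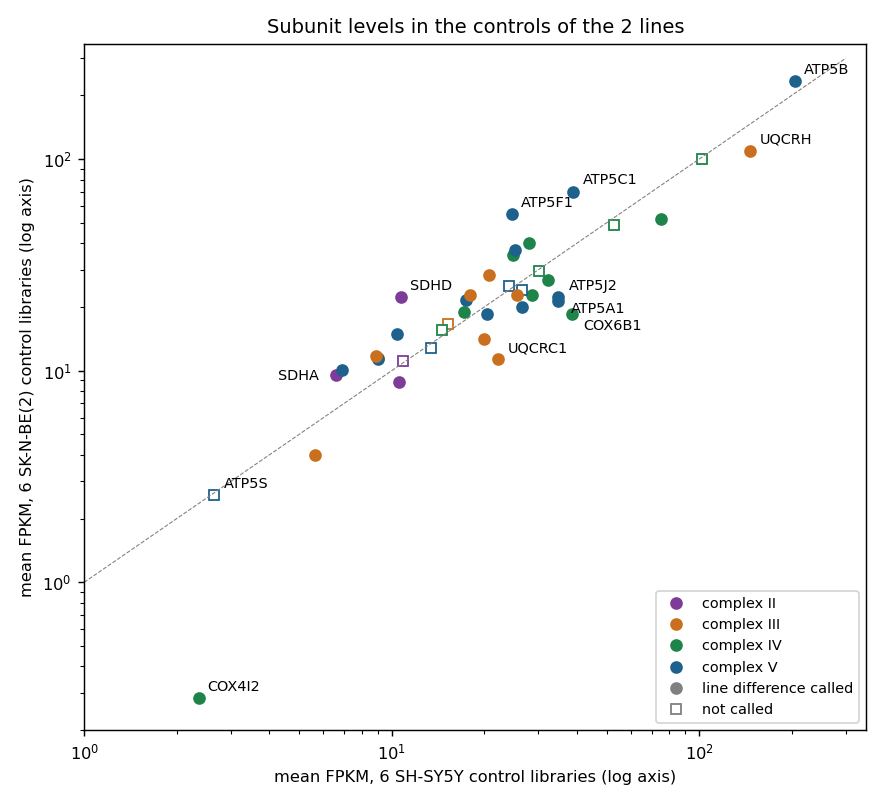
Mean FPKM of each tested subunit gene in the 6 empty-vector libraries of SH-SY5Y (horizontal axis) and of SK-N-BE(2) (vertical axis), on log axes, with genes coloured by complex and the diagonal marking equal levels. ATP5B is the highest point in each line; ATP5F1 and SDHD lie above the diagonal, and COX6B1 and UQCRC1 below it.

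As ratios of FPKM, ATP5B stood to ATP5A1 at 9.97 ± 0.13 (SD, n = 3) in the SK-N-BE(2) knockdown control and at 5.98 ± 0.09 in that of SH-SY5Y, although the protein complex holds these subunits in equal number. In the overexpression controls it was 12.0 ± 0.18 and 5.86 ± 0.11. The ratio of UQCRC2 to UQCRC1 was 2.30 ± 0.06 in the knockdown control of SK-N-BE(2) and 1.0 ± 0.04 in that of SH-SY5Y, and 2.76 ± 0.11 and 0.86 ± 0.03 in the overexpression controls. The ratios thus differed between the empty vectors of a line too, by less than between the lines. A transcript ratio is not a protein ratio, and no protein was measured here.

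Promoter sequences are shown for 6 genes on which the comparisons below turn. The RefSeq table of GRCh38.p14 held at least 1 window (250 bases before to 50 after a start) for 35 of the 50 genes, 41 windows in all. These were searched on both strands for the site of NRF1 (GCGCA and GCGC with 1 base of any kind between them), a factor known to bind promoters of respiratory genes, and for CCGGAAG, the core of the ETS family that GABP (NRF2 in the older literature) binds. The NRF1 letters occurred in 24.4% of the subunits' windows against 5.78% of the 35116 windows in the table, and the ETS letters in 39.0% against 10.3%. Among the 22199 windows of protein-coding genes the shares were 7.39% and 12.8%. In all, 22 of the 35 genes held one or the other motif, and 3 held both. Each stretch below is written 5′ to 3′ in the direction of the gene and ends at the base before the start; capitals mark a motif match on either strand, and a match is a description of letters, not evidence of binding.
SDHA (flavoprotein of complex II, chr5:218140-218319, plus strand): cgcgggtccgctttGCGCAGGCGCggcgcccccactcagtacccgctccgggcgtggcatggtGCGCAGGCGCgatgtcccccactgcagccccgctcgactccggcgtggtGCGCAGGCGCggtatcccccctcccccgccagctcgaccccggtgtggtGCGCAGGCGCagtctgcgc
UQCRC1 (core subunit of complex III, chr3:48609647-48609746, minus strand): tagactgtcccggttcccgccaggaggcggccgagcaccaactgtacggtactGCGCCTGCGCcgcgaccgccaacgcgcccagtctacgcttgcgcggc
ATP5O (OSCP, which joins the stalk to the catalytic head of complex V, chr21:33915805-33915904, minus strand): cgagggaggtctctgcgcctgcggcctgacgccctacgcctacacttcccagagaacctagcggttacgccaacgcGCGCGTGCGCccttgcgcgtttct
COX6A1 (complex IV, chr12:120438013-120438112, plus strand): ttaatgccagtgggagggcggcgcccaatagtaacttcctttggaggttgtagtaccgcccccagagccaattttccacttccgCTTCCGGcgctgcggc
COX6B1 (complex IV, chr19:35648223-35648322, plus strand): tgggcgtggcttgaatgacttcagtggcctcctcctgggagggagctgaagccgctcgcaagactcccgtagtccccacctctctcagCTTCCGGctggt
ATP5G1 (subunit c of the rotor ring of complex V, chr17:48892687-48892786, plus strand): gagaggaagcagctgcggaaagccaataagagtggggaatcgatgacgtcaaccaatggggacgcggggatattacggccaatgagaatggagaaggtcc

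SDHA had the NRF1 letters in 4 places, beginning 166, 117, 68 and 19 bases before the start and thus evenly spaced by 49 bases. UQCRC1 and ATP5O each had 1, at 47 and 24 bases. COX6A1 and COX6B1 had the ETS letters on the opposite strand, at 16 and 12 bases. ATP5G1 had neither motif in its window.

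Against its own empty vector, knockdown in SK-N-BE(2) lowered subunit transcripts of complexes III, IV and V, and under the main scaling also of complex II. At an adjusted p under 0.05, 21 of 42 genes fell and 0 rose (limma; at an unadjusted p under 0.05, 21 fell and 1 rose). Among all tested genes 55.7% were called, 28.3% lower and 27.4% higher. Their median log2 change was -0.18, beside -0.01 for all genes. The calls fell on 2 of 4 genes in complex II, 4 of 10 in complex III, 6 of 12 in complex IV and 9 of 16 in complex V. When each library was rescaled to TPM (a fixed total over genes), the split was 13 lower and 2 higher, beside 21.8% and 33.8% of all tested genes. The 2 were ATP5B (log2 change 0.13) and ATP5F1 (0.26). No complex II gene was called under TPM scaling, and the median of all genes rose to 0.07.

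**Figure D2:**
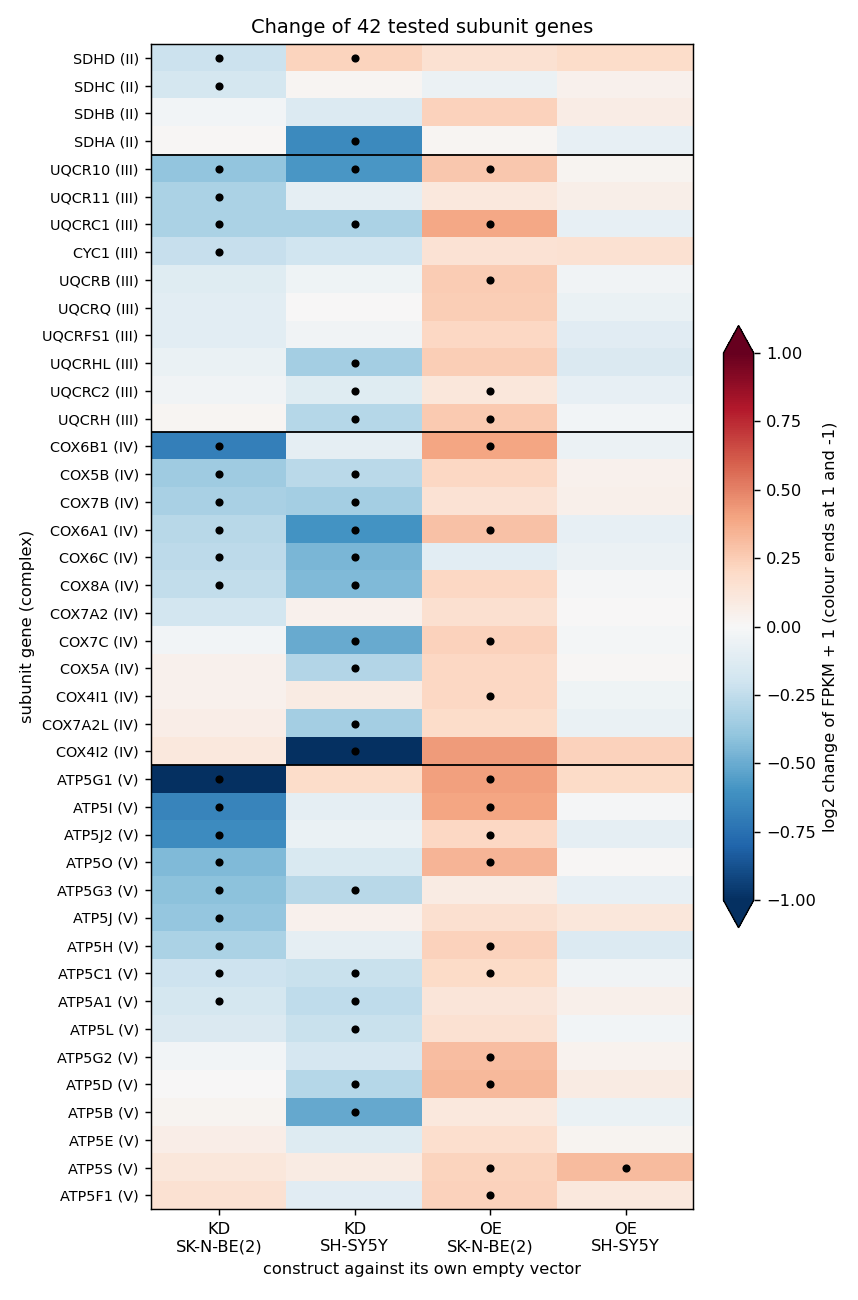
Log2 change of the 42 tested subunit genes (rows, ordered by complex) in the 4 construct comparisons (columns; KD is knockdown and OE overexpression), each against its own empty vector; blue is lower, red is higher, the colour scale ends at 1 in each direction, and a dot marks an adjusted p under 0.05. The knockdown columns hold 21 lower calls each, the overexpression column of SK-N-BE(2) holds 19 higher calls and that of SH-SY5Y 1.

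In complex V, the change was largest in ATP5G1. Its FPKM was 4.97, 6.36 and 5.93 in the knockdown libraries and 13.2, 14 and 13.7 in their controls. All knockdown libraries lay far below all controls, a 2.37-fold lower mean (log2 change -1.12, SE 0.10, adjusted p = 1.07e-08). ATP5G1, ATP5G2 and ATP5G3 encode the same mature subunit c behind different import sequences. ATP5G3 fell less (log2 change -0.41, adjusted p = 1.02e-05; 11.4 against 15.4 FPKM), and ATP5G2 was not called (-0.03, adjusted p = 0.835). The share of ATP5G1 in the summed FPKM of the 3 genes was 13.9%, 15.2% and 16.5% in the knockdown libraries and 26.3%, 27.7% and 27.4% in their controls. It was 20.2% ± 1.1 (SD, n = 3) in the overexpression control, between these groups.

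Further subunits of complex V fell. ATP5J2, which encodes subunit f, was at 13.5, 16.1 and 14.5 FPKM against 23.2, 24.2 and 22.0 in the control, without overlap (log2 change -0.63, SE 0.07, adjusted p = 3.87e-07). ATP5I, which encodes subunit e, was at 12.2, 19.2 and 11.8 FPKM against 22.5, 22.0 and 23.7 (-0.66, adjusted p = 0.000141), so that its knockdown libraries spread widely but stayed below the controls. ATP5O fell by 0.44 on the log2 scale (adjusted p = 2.14e-05), with 15.1, 16.9 and 13.8 FPKM against 21.4, 20.2 and 21.6. Smaller decreases were called for the stalk subunits ATP5J (F6, -0.39) and ATP5H (d, -0.32), for the alpha subunit ATP5A1 (-0.17) and for the gamma subunit ATP5C1 (-0.21). The catalytic ATP5B stood at 216, 246 and 221 FPKM against 225, 222 and 223, and overlapped its control. ATP5L, which encodes the membrane subunit g, was not called (log2 change -0.14).

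In complex IV, COX6B1 was at 10.3, 16.8 and 12.6 FPKM in the knockdown and 21.7, 21.6 and 20.9 in the control. The groups did not overlap, and the mean was 1.62-fold lower (log2 change -0.68, SE 0.12, adjusted p = 5.78e-05). Other small subunits fell by less: COX7B (-0.33), COX5B (-0.35), COX6A1 (-0.28), COX6C (-0.26) and COX8A (-0.25, adjusted p = 0.0412). The libraries of COX8A overlapped those of its control. COX4I1 and COX5A, which join the complex early in its assembly, had changes of 0.05 and 0.04 and were not called.

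In complex III the decrease included UQCRC1, at 9.15, 10.5 and 9.66 FPKM against 12.3, 12.2 and 12.6 (-0.31, adjusted p = 0.000452). UQCR10, a small subunit next to cytochrome c1, fell by 0.39 on the log2 scale (adjusted p = 0.00196), and UQCR11 and CYC1, cytochrome c1 itself, fell by 0.32 and 0.23. Neither UQCRFS1, the Rieske iron-sulfur protein, nor UQCRC2 was called (-0.10 and -0.04). In complex II the membrane anchors were called: SDHC fell by 0.18 on the log2 scale (adjusted p = 0.000864) and SDHD by 0.22 (adjusted p = 0.0149), while SDHA and SDHB, which form the catalytic head, had changes of 0.01 and -0.03. Under TPM scaling the calls of SDHC (-0.09, adjusted p = 0.119) and SDHD (-0.12, adjusted p = 0.145) were lost.

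Set against the other empty vector of SK-N-BE(2), the overexpression control, 9 of 42 genes were lower and 0 higher, beside 25.2% and 22.5% of all tested genes. Lower calls were thus no more frequent among the subunits than among all genes in that setting. Of the 21 calls 7 remained (ATP5G1 at -0.60, ATP5J2 at -0.52, ATP5G3, COX6C at -0.73, COX7B, UQCR10 and SDHC) and 14 were lost, among them ATP5O (-0.05), UQCRC1 (-0.06) and COX6B1 (-0.26), while SDHA (-0.22) and ATP5F1 (-0.19) were gained. Leaving out 1 library ended the calls of SDHD (without knockdown library 3, -0.15, or knockdown-control library 2, -0.16) and of COX6A1 (without knockdown library 1 or 3, or knockdown-control library 1, -0.25 to -0.24). ATP5C1 lost its call without knockdown library 3 (-0.16), and COX8A lost it without any library other than knockdown library 2 (-0.28 to -0.17).

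Knockdown in SH-SY5Y lowered as many genes, and in part other genes. At an adjusted p under 0.05, 21 of 42 fell and 1 rose, beside 56.0% of all tested genes called, 29.6% lower and 26.3% higher. The median log2 change was again -0.18 against -0.01 for all genes. The calls took in 9 of 12 complex IV genes (median -0.34), 5 of 10 in complex III, 6 of 16 in complex V, and 1 lower and 1 higher of 4 in complex II. The lower calls of complex IV include COX4I2, which passed the filter through other SH-SY5Y groups and lay under 1 FPKM in each knockdown library. TPM scaling gave 30 lower and 0 higher, beside 35.9% and 19.7% of all tested genes, with the all-gene median moved to -0.10.

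SDHA had the smallest adjusted p of the decreases in SH-SY5Y, though not the largest change. It was at 3.91, 4.40 and 4.0 FPKM in the knockdown and 7.01, 6.83 and 6.96 in the control, with no overlap and little spread (log2 change -0.64, SE 0.05, adjusted p = 3.64e-10, a 1.69-fold lower mean). SDHD went the other way, at 12.5, 13.8 and 14.7 FPKM against 12.1, 11 and 11.6 (0.22, adjusted p = 0.012). The call of SDHD was lost under TPM scaling (0.14, adjusted p = 0.0958) and without knockdown library 3 (0.17, adjusted p = 0.0699) or knockdown-control library 2 (0.19, adjusted p = 0.0555). Within complex II the ratio of SDHD to SDHA went from 1.67 ± 0.05 in the control to 3.34 ± 0.28 in the knockdown (SD, n = 3), a ratio that no scaling of a library alters. SDHA has several pseudogene rows in the table, whose summed mean over all libraries, at 111% of SDHA's own, makes its share of reads uncertain.

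In complex V, ATP5B was at 142, 144 and 149 FPKM in the SH-SY5Y knockdown and 211, 204 and 209 in the control. The groups were far apart (log2 change -0.51, SE 0.06, adjusted p = 1.42e-07, a 1.43-fold lower mean). ATP5A1, its partner in the catalytic head, fell by 0.25 (adjusted p = 0.00022) on the log2 scale, and the ratio of ATP5B to ATP5A1 went from 5.98 ± 0.09 to 5.00 ± 0.05. ATP5G3 and ATP5C1 fell by 0.28 and 0.22, the latter losing its call without knockdown library 1 (-0.17). ATP5G1, the strongest decrease in the other line, was at 9.07, 8.47 and 10.8 FPKM against 8.05, 8.16 and 8.21 and was not called (0.19, adjusted p = 0.127).

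**Figure D3:**
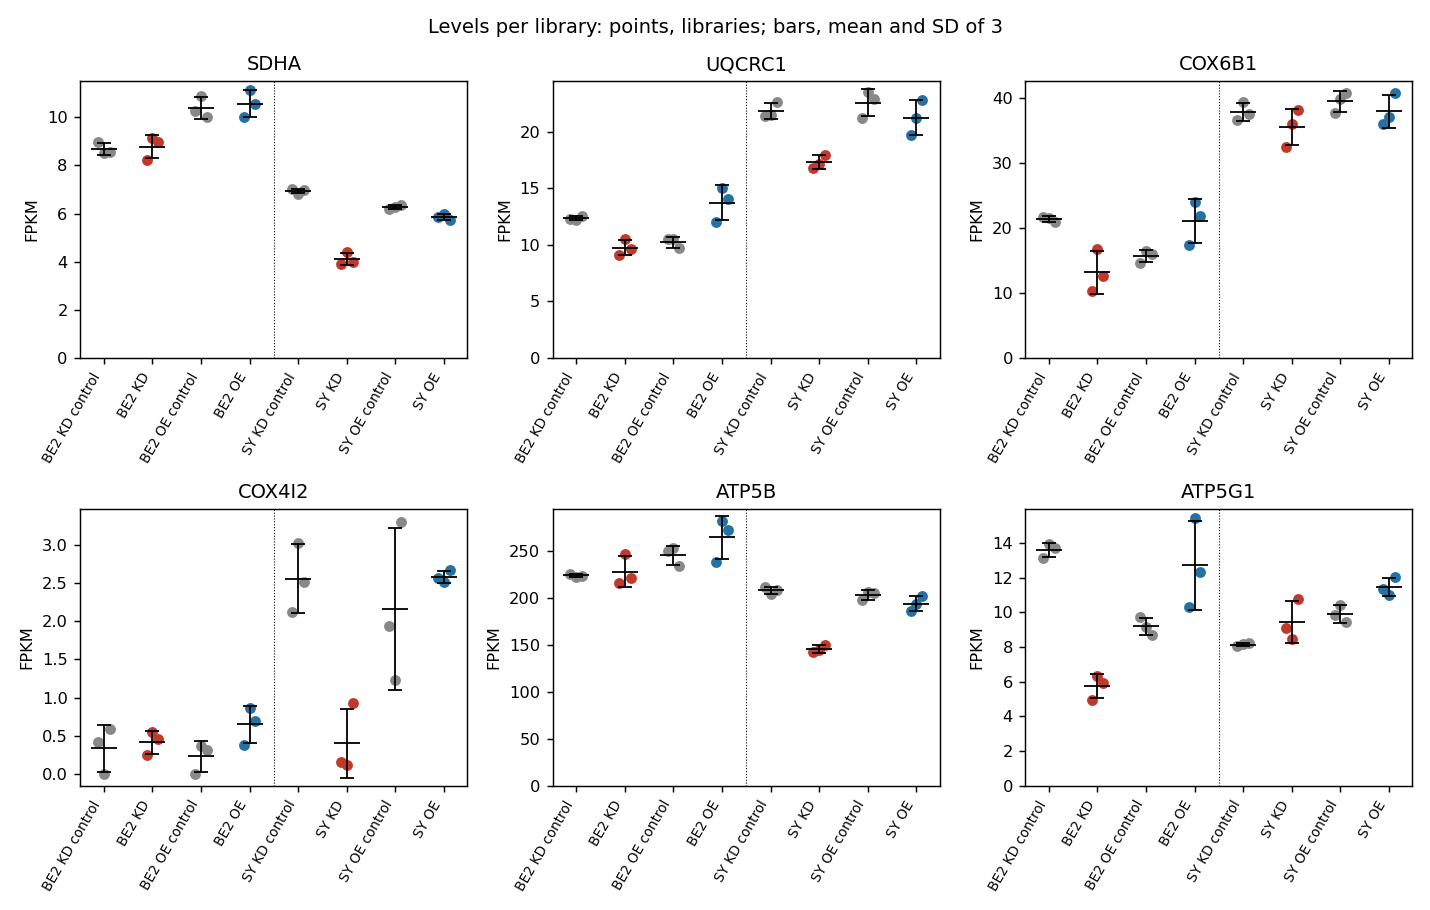
FPKM of SDHA, UQCRC1, COX6B1, COX4I2, ATP5B and ATP5G1 in each of the 24 libraries, by group (BE2 is SK-N-BE(2), SY is SH-SY5Y, KD is knockdown, OE is overexpression), with points for libraries and the mean and SD of each group. SDHA, COX4I2 and ATP5B are lowest in the SH-SY5Y knockdown among the SH-SY5Y groups, and ATP5G1 is lowest in the SK-N-BE(2) knockdown.

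Complex IV gave the widest set of decreases in SH-SY5Y. COX6A1 was at 40.7, 47.0 and 49.97 FPKM against 70.8, 69.9 and 68.6 (-0.60, adjusted p = 1.34e-05), and COX7C at 36.8, 37.1 and 37.9 against 54.8, 53.3 and 52.0 (-0.51, adjusted p = 2.33e-05). Neither pair of groups overlapped. COX6C (-0.45), COX8A (-0.44), COX7B (-0.34), COX5A (-0.30) and COX5B (-0.27) also fell. COX7A2L, whose product bridges complexes III and IV in supercomplexes, fell by 0.34 on the log2 scale (adjusted p = 0.00146), while its relative COX7A2 was not called (0.05).

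COX4I2 encodes the alternative form of subunit 4, known from lung and from low oxygen. It was at 0.165, 0.121 and 0.925 FPKM in the SH-SY5Y knockdown and 2.12, 3.02 and 2.51 in the control. It entered the test only through SH-SY5Y groups other than the knockdown. The groups did not overlap (log2 change -1.38, SE 0.23, adjusted p = 2.7e-05; the mean FPKM was 6.32-fold lower). In the SH-SY5Y overexpression libraries it was at 2.56, 2.51 and 2.66 FPKM, and in the overexpression control at 1.94, 1.23 and 3.30. Its share of subunit 4 FPKM, which no library scaling alters, was 0.541%, 0.403% and 2.87% in the knockdown against 6.98%, 9.14% and 8.20% in the control. In SK-N-BE(2) it never exceeded 0.868 FPKM, and the widely expressed COX4I1 carried nearly all of the subunit in each group of both lines.

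In complex III, UQCR10 was at 16.4, 17.4 and 16.9 FPKM against 25.0, 25.0 and 27.4 (-0.58, adjusted p = 3.58e-05) and UQCRC1 at 16.8, 17.2 and 18.0 against 21.4, 21.5 and 22.7 (-0.32, adjusted p = 0.000376). For each gene the groups were separate. UQCRH, the most abundant transcript of the complex, fell by 0.29 (adjusted p = 0.00378), and its near-copy UQCRHL by 0.34 (adjusted p = 0.0167). Against the other empty vector of SH-SY5Y, 21 of the 22 calls remained, UQCRC2 was lost and 6 more genes were called. In all, 25 were lower and 2 higher there, beside 31.7% and 26.5% of all tested genes. SDHA kept a change of -0.51, ATP5B of -0.48 and COX4I2 of -1.16 there.

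Of the genes that fell, 10 were the same in both lines, which is 47.6% of each list of 21: ATP5A1, ATP5C1, ATP5G3, COX5B, COX6A1, COX6C, COX7B, COX8A, UQCR10 and UQCRC1. Over all tested genes the lower calls of the knockdowns shared 1678, which is 37.3% of the SK-N-BE(2) list and 35.6% of the SH-SY5Y list. These comparisons have no library in common. Under TPM scaling ATP5A1, ATP5C1, COX6A1, COX6C and COX8A lost their call in SK-N-BE(2), and against the other empty vector of that line only ATP5G3, COX6C, COX7B and UQCR10 of the 10 kept it. UQCRC1 had log2 changes of -0.31 and -0.32, and COX7B of -0.33 and -0.34.

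The difference between the knockdown responses was tested directly as an interaction. It was called for 17 of 42 genes, 9 higher (less decreased or more increased) in SK-N-BE(2) and 8 lower, beside 55.8% of all tested genes, 29.5% higher and 26.3% lower. ATP5G1 differed most toward a stronger decrease in SK-N-BE(2), with an interaction of -1.31 (SE 0.14, adjusted p = 1.68e-07). ATP5J2 (-0.56), COX6B1 (-0.59), ATP5I (-0.57) and SDHD (-0.44) differed in the same direction. On the other side stood SDHA (0.65, adjusted p = 5.98e-08), ATP5B (0.54, adjusted p = 8.84e-06), COX7C (0.48) and COX7A2L (0.40). COX4I2 was also called (1.49), but it passed the filter only through the control and overexpression libraries of SH-SY5Y. It lay under 1 FPKM in every SK-N-BE(2) library, so its interaction rests on its change in SH-SY5Y. SDHD was the only subunit gene called lower in one knockdown and higher in the other. UQCRC1, COX7B and ATP5C1 had interactions of 0.00, 0.01 and 0.01, which were not called. TPM scaling shifted the median interaction of all genes to 0.20. It gave 21 higher and 5 lower among the subunits, beside 39.1% and 16.9% of all tested genes. Scaling without the mitochondrially encoded genes gave 9 higher and 12 lower, beside 26.7% and 27.7%, so the split depends on the scaling.

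**Figure D4:**
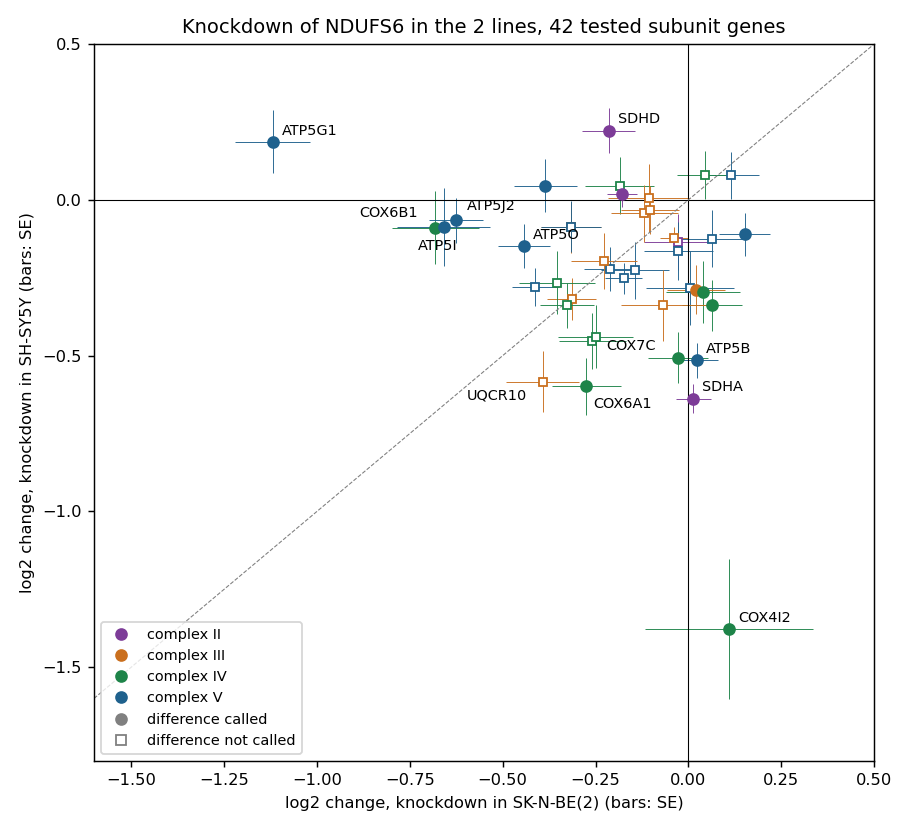
Log2 change of each tested subunit gene in the SK-N-BE(2) knockdown (horizontal axis) and the SH-SY5Y knockdown (vertical axis), with bars of 1 SE. Filled circles mark genes whose difference between lines was called and open squares the others. ATP5G1 lies farthest left, SDHA and ATP5B lie near a horizontal value of 0 and below 0 on the vertical axis, and COX4I2 lies lowest.

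Other features of the cells moved with the knockdowns. The summed FPKM of the 9 neuroblastoma markers was 532 to 676 in the SK-N-BE(2) knockdown against 1120 to 1140 in its control, and 831 to 852 against 1131 to 1149 in SH-SY5Y. The 5 stromal markers (collagens, decorin, lumican and PDGFRB), which neuroblastoma cells of mesenchymal state also express, summed to 139 to 161 FPKM against 119 to 125 in SK-N-BE(2) and to 226 to 238 against 95.3 to 98.8 in SH-SY5Y. In SK-N-BE(2) the higher sum came from COL3A1 (49.2 against 16.4 FPKM) and COL1A1 (11.5 against 5.26 FPKM), while DCN, LUM and PDGFRB had lower means in the knockdown. Of 4 immune markers, CD68 had a mean of 10.1 FPKM in the SH-SY5Y knockdown against 1.89 in its control, and PTPRC and CD3E were at or near 0 throughout. MYCN, the amplified oncogene of SK-N-BE(2), was at 431 to 608 FPKM in that knockdown against 1101 to 1104. The part of these features in the subunits' changes was not tested, and in bulk RNA fewer cells of a type and less RNA per cell cannot be told apart. Transcripts of mitochondrial DNA made up 27.8% of all FPKM in the SK-N-BE(2) knockdown against 33.8% in its control, but 37.0% against 31.1% in SH-SY5Y, and their part was not tested beyond the scaling alternative.

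Summed over the 42 tested members, the subunits' FPKM was 1139, 1310 and 1127 in the SK-N-BE(2) knockdown against 1305 to 1331 in its control, so that 1 knockdown library reached the control range. In SH-SY5Y it was 999 to 1088 against 1252 to 1277, with no overlap. The highly expressed ATP5B, UQCRH and COX8A weigh most in these sums.

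**Figure D5:**
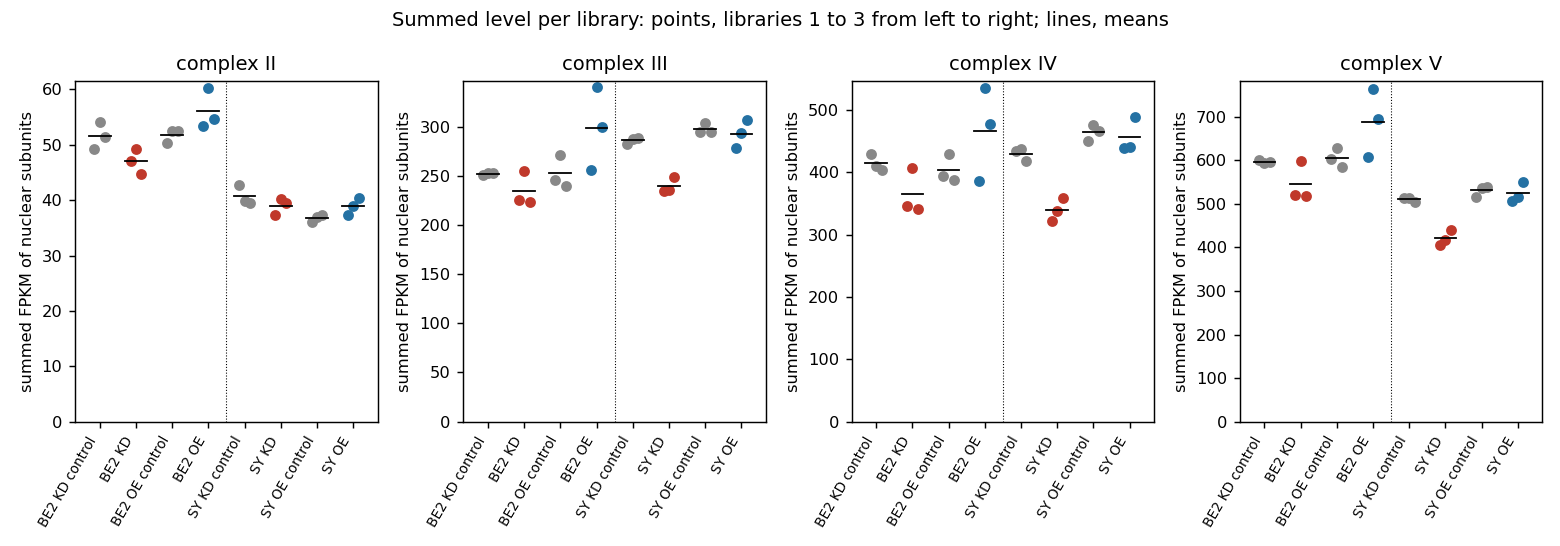
Summed FPKM of the tested subunit genes of complexes II, III, IV and V in each of the 24 libraries, by group, with points for libraries and a line at the mean of each group. In the SH-SY5Y knockdown the sums over complexes III, IV and V lie below those of its control, and the SK-N-BE(2) overexpression libraries spread more than other groups.

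Overexpression of NDUFS6 in SK-N-BE(2) went with higher subunit transcripts. NDUFS6 itself rose by only 0.39 on the log2 scale (limma, adjusted p = 0.017), within the range of the subunits' changes (-0.11 to 0.43). At an adjusted p under 0.05, 19 of 42 genes rose and 0 fell (limma; 26 rose and 0 fell at an unadjusted p under 0.05), beside 29.7% of all tested genes called, 12.9% higher and 16.8% lower. The median log2 change was 0.21 against -0.01 for all genes. Of the calls 5 lay in complex III, 4 in complex IV, 10 in complex V and 0 in complex II, where 2 genes had an unadjusted p under 0.05. This count leaned on the libraries: it was 36 without overexpression library 1, 4 without overexpression library 2, 7 without overexpression library 3, 5 without overexpression-control library 1 and 4 without overexpression-control library 3. The share of all genes called higher ranged with it, from 7.92% without overexpression library 2 to 17.3% without overexpression library 1. With only the overexpression libraries and their control in the fit, limma called 0 subunits, and 11 had an unadjusted p under 0.05.

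UQCRC1 was at 12.1, 15.1 and 14.1 FPKM with overexpression and 10.5, 10.5 and 9.70 in the control. The groups did not overlap (log2 change 0.38, adjusted p = 0.000338). ATP5O was at 18.1, 22.5 and 20.6 FPKM against 16.2, 16.6 and 14.7 (0.34, adjusted p = 0.00143), and ATP5G1 at 10.3, 15.5 and 12.3 against 9.70, 9.18 and 8.72 (0.41, adjusted p = 0.00509), both without overlap. These 3 kept their calls whichever library was left out. COX6B1 (0.39), ATP5F1 (0.23), COX6A1 (0.29), UQCRH (0.26) and ATP5G2 (0.31) rose by the test on all libraries, and each of these 5 lost its call in at least 1 fit with a library left out. Of the 19 genes, 8 had groups that did not overlap. The share of all genes called higher here whose groups were separate was not counted. The overexpression libraries also differed most among themselves: over tested genes, the log2 differences between libraries 1 and 2 had an SD of 0.323, and their summed subunit FPKM was 1303, 1701 and 1526.

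Of the 19 genes that rose, 10 had fallen in the SK-N-BE(2) knockdown, which is 52.6% of the 19 and 47.6% of the 21; over all genes 700 were lower in the knockdown and higher with overexpression, 34.2% and 15.6% of those lists. These 10 were ATP5C1, ATP5G1, ATP5H, ATP5I, ATP5J2, ATP5O, COX6A1, COX6B1, UQCR10 and UQCRC1, and the comparisons use different control libraries. The controls themselves, however, differed for several of the same genes. Between the overexpression control and the knockdown control of SK-N-BE(2), 3 subunits were higher in the former and 5 lower, beside 34.5% of all tested genes called, 19.0% higher and 15.5% lower. ATP5G1 was at 9.20 FPKM against 13.6 (log2 difference -0.52, adjusted p = 0.000437), ATP5O differed by -0.39, COX6B1 by -0.42 (15.7 against 21.4 FPKM), ATP5I by -0.37 and UQCRC1 by -0.25, while COX6C (0.47, 41.2 against 29.5 FPKM), ATP5F1 (0.34) and SDHA (0.23) were higher. The 5 genes lower in the overexpression control all stand among the 10, and the call of ATP5I was lost without knockdown-control library 1 or 3 or overexpression-control library 1 or 3 (-0.38 to -0.35). Under TPM scaling the split of the control comparison was 10 higher and 4 lower, beside 29.3% and 9.83% of all tested genes.

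Set against the knockdown control in place of its own, the overexpression libraries of SK-N-BE(2) had 14 subunits higher and 0 lower, of which 7 were among the 19. Of all tested genes 20.3% were higher and 20.0% lower in that setting. ATP5G1, ATP5O and COX6B1 then had log2 changes of -0.11, -0.05 and -0.03 (adjusted p = 0.429, 0.639 and 0.867), whereas SDHA (0.26), ATP5B (0.24) and COX6C (0.36) were called higher. NDUFS6 itself was not called between the controls of SK-N-BE(2) (log2 difference 0.19, adjusted p = 0.229).

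In SH-SY5Y, where the construct raised NDUFS6 most, 1 of 42 subunits rose and 0 fell (limma; 2 rose and 1 fell at an unadjusted p under 0.05), beside 32.6% of all tested genes called, 15.4% higher and 17.2% lower. The gene was ATP5S, at 3.51, 3.92 and 3.54 FPKM against 2.67, 2.78 and 2.81 (log2 change 0.31, SE 0.08, adjusted p = 0.0033), with no overlap. ATP5S, now named DMAC2L, encodes a coupling factor of ATP synthase. The median over subunits was -0.01, equal to that of all genes. Scaling without mitochondrially encoded genes gave 2 higher and 1 lower, beside 13.5% and 16.7% of all tested genes. The line's other empty vector gave 5 higher and 2 lower, beside 26.5% and 28.9%.

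Directly compared, the overexpression changes differed between lines for 9 of 42 subunits, all higher in SK-N-BE(2), with 0 lower by limma (17 higher and 0 lower at an unadjusted p under 0.05), beside 36.8% of all tested genes called, 18.3% higher and 18.5% lower. UQCRC1 (0.47, adjusted p = 0.000666), UQCRC2 (0.19, adjusted p = 0.00669) and ATP5O (0.33, adjusted p = 0.0136) kept their calls whichever library was left out, but UQCRC2 lost its call under TPM scaling (0.11, adjusted p = 0.0574). The count fell to 3 without SK-N-BE(2) overexpression library 2. It was 5 without SK-N-BE(2) overexpression library 3 or overexpression-control library 1 or 3, and 4 without SH-SY5Y overexpression library 1 or 2 or overexpression-control library 2 or 3. It rose to 29 without SK-N-BE(2) overexpression library 1 and to 14 without SH-SY5Y overexpression library 3. TPM scaling gave 3 higher and 1 lower (SDHC, -0.19), beside 14.8% and 23.9% of all tested genes.

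The empty vectors of SH-SY5Y differed for 6 subunits, with 2 higher in the overexpression control and 4 lower, beside 36.2% of all tested genes called, 17.8% higher and 18.4% lower. ATP5J2 was higher (38.3 against 31.0 FPKM, 0.30), as was ATP5J (0.26). UQCRC2 (-0.16) and 3 complex II genes, SDHD (-0.22), SDHA (-0.13) and SDHC (-0.11), were lower. Leaving out any 1 library reduced the 6 calls: 2 were made without knockdown-control library 1, 4 without knockdown-control library 2, and 3 without any of the 4 others. TPM scaling gave 4 higher and 3 lower, beside 16.6% and 17.7% of all tested genes.

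Assembly of these complexes needs further nuclear proteins, and 62 of them, with the carriers and partners of the chain, formed a list of their own, of which 61 were tested. In the SK-N-BE(2) knockdown 24 fell and 8 rose, and in the SH-SY5Y knockdown 19 fell and 13 rose. Of all tested genes 28.3% fell and 27.4% rose in the former and 29.6% and 26.3% in the latter. LYRM7, which loads the Rieske protein into complex III, fell in SK-N-BE(2) (5.07 against 9.54 FPKM, log2 change -0.80, adjusted p = 1.41e-10), as did COX16 (-0.69) and COX11 (-0.55), both assembly factors of complex IV. COX17, the copper chaperone of complex IV, fell most in SH-SY5Y (1.10 against 4.63 FPKM, -1.44, adjusted p = 3.33e-10), with the phosphate carrier SLC25A3 (-0.36) and LRPPRC (-0.23), which stabilises mitochondrial messages. COQ10B, a coenzyme Q binding protein, rose in both knockdowns (1.12 in SK-N-BE(2), 8.10 against 3.19 FPKM; 0.65 in SH-SY5Y, 9.56 against 5.75 FPKM). COX19 (0.46) and HCCS (0.44), the heme lyase of c-type cytochromes, rose in SK-N-BE(2), and SDHAF2 (0.47), which attaches flavin to SDHA, and TMEM70 (0.51), an ATP synthase assembly factor, rose in SH-SY5Y.

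The interaction between knockdown and line was called for 16 genes of this list higher in SK-N-BE(2) and 15 lower, which is 50.8% of the list beside 55.8% of all tested genes. The adenine nucleotide carrier SLC25A4 (0.92), cytochrome c itself (CYCS, 0.67) and COX17 (0.89) were higher, and COA3 (-1.0), COA5 (-0.70) and LYRM7 (-0.50) lower. With overexpression in SK-N-BE(2), 11 rose and 0 fell, beside 12.9% and 16.8% of all genes, led by NDUFA4L2 (2.44 against 0.576 FPKM, 1.12) and the adenine nucleotide carriers SLC25A6 (0.50) and SLC25A5 (0.42). With overexpression in SH-SY5Y, 5 rose and 3 fell, beside 15.4% and 17.2% of all genes, the former including BCS1L (0.53), UQCC2 (0.39) and ATPAF1 (0.33), and the latter SDHAF4 (-0.82), COQ10A (-0.42) and ATPAF2 (-0.24). BCS1L and UQCC2 act in complex III assembly, ATPAF1 and ATPAF2 in that of the ATP synthase head, and SDHAF4 in that of complex II.

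Set beside the promoter letters shown above, the lower calls in the SK-N-BE(2) knockdown took in 7 of 9 tested genes with the NRF1 letters. They took in 10 of 15 with the ETS letters and 2 of 10 with neither, beside 28.3% of all tested genes, whatever their promoter. Genes with both motifs count in both classes. In the SH-SY5Y knockdown the lower calls were 4 of 9, 6 of 15 and 5 of 10, beside 29.6% of all genes. SDHD, which holds both motifs, was the 1 gene called higher there. The higher calls with overexpression in SK-N-BE(2) were 5 of 9, 6 of 15 and 5 of 10, beside 12.9% of all genes. SDHA, with its 4 NRF1 matches, fell in SH-SY5Y and was not called in SK-N-BE(2), and ATP5G1, with neither motif, fell most in SK-N-BE(2). The order of the motif classes in the SK-N-BE(2) knockdown was not kept against the line's other empty vector. Of the 9 genes lower there, UQCR10 and SDHA hold the NRF1 letters, and ATP5G1, ATP5F1 and COX7B hold neither motif. ATP5J2, ATP5G3, COX6C and SDHC have no window. These counts are descriptions of a small number of genes.

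Subunits of the respiratory chain are often short, and FPKM of short transcripts depends on the length used. Across the 42 tested genes, the log2 change in the SK-N-BE(2) knockdown had a Spearman correlation of 0.42 with annotated transcript length, against 0.05 over 15787 tested genes with a length. The genes share libraries and are not independent. With overexpression in SK-N-BE(2) it was -0.46, against -0.31 over all genes, and in the SH-SY5Y knockdown 0.03. Of the 16 subunits under 1000 bases, 10 fell in the SK-N-BE(2) knockdown and 11 rose with overexpression, and of the 26 longer ones 11 fell and 8 rose. Of all genes under 1000 bases 20.8% fell and 12.6% rose in these comparisons, and of the longer ones 29.8% and 13.0%. Between the empty vectors, which differ in no NDUFS6 construct, it was 0.44 in SK-N-BE(2) and -0.47 in SH-SY5Y. The part of length in the calls was not tested.

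COX6A1, COX7C, COX8A, UQCR11, ATP5G2, ATP5G3, ATP5J2, ATP5L, ATP5O and SDHD share exon bases on the same strand with another annotated gene, and how reads there were split between genes is not known here. Their values carry that uncertainty. Pseudogene rows named after a gene, at 111% of the mean FPKM of SDHA, also stood at 13.5% of UQCRFS1 and 11.6% of COX6A1. They stood at 5.93% of UQCRB and 5.88% of COX5B, and at less in the other tested members.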

How the data were processed

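RNA of 24 libraries in 8 groups of 3 was measured as deposited FPKM in a table of 60564 rows. Per the labels' protocols, RNA was extracted with TRIzol and made into strand-specific TruSeq libraries. Per the submitters' processing notes, the authors used FastQC 0.11.2, STAR, StringTie 1.3.1c and hg38; no source used here gives the annotation or the counting settings. Read depth is unknown, so no counting interval is given.

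From the deposited FPKM, log2(FPKM + 1) was computed, and the 15903 genes that reached 1 FPKM in 3 or more libraries were fitted in 1 limma model of the 8 groups (limma 3.58.1, R 4.3.3, mean-variance trend, robust moderation, 16 residual degrees of freedom). P-values were two-sided and adjusted by Benjamini-Hochberg over all 15903 genes, and 9 contrasts were read. The share of all tested genes called in each comparison of the main fit was taken over 15902 genes, with NDUFS6 set aside. A gene was called at an adjusted p under 0.05. A log2 change on this scale understates the change of genes near 1 FPKM. The fit was tested on simulated data.

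The members, lists and tests were chosen with earlier results of these data known. Named genes were up to 5 called members per direction and comparison by smallest adjusted p, members called in both knockdowns, isoform sets, the highest member of each complex, and up to 3 per direction of the assembly list; further members are named to account for their complex, and were chosen after their values were seen. Gene lengths and overlaps came from GENCODE v29, promoters from RefSeq. Alternatives were another pseudocount, filters, scalings, fits, controls, a replicate block and leaving out each library.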

Additional observations from a re-analysis of the deposited data

Results flagged for a closer look

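In 17 subunit genes the knockdown response differed between the lines by the interaction test (SK-N-BE(2) minus SH-SY5Y, log2, limma with Benjamini-Hochberg adjustment), beside 55.8% of all tested genes. The decrease was stronger, or the change lower, in SK-N-BE(2) for ATP5G1 (-1.31, adjusted p = 1.68e-07), COX6B1 (-0.59, adjusted p = 0.00518), ATP5I (-0.57, adjusted p = 0.0092), ATP5J2 (-0.56, adjusted p = 0.000109), SDHD (-0.44, adjusted p = 0.00104), ATP5J (-0.43, adjusted p = 0.0046), ATP5O (-0.29, adjusted p = 0.017) and SDHC (-0.20, adjusted p = 0.00648). The change was lower in SH-SY5Y for COX4I2 (1.49, adjusted p = 0.000522), SDHA (0.65, adjusted p = 5.98e-08), ATP5B (0.54, adjusted p = 8.84e-06), COX7C (0.48, adjusted p = 0.00154), COX7A2L (0.40, adjusted p = 0.00598), COX5A (0.34, adjusted p = 0.0484), COX6A1 (0.32, adjusted p = 0.0416), UQCRH (0.31, adjusted p = 0.0235) and ATP5F1 (0.26, adjusted p = 0.0283). COX4I2 passed the filter only through the control and overexpression libraries of SH-SY5Y. The knockdowns also differed in how far NDUFS6 itself fell, by -2.38 and -1.33 on the log2 scale, and its part in these differences was not tested.

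In 9 genes the response to overexpression differed, beside 36.8% of all tested genes, all higher in SK-N-BE(2): UQCRC1 (0.47, adjusted p = 0.000666), COX6B1 (0.45, adjusted p = 0.0422), ATP5H (0.37, adjusted p = 0.017), COX6A1 (0.37, adjusted p = 0.0313), ATP5O (0.33, adjusted p = 0.0136), UQCRFS1 (0.32, adjusted p = 0.0268), UQCRH (0.29, adjusted p = 0.0485), ATP5J2 (0.29, adjusted p = 0.0317) and UQCRC2 (0.19, adjusted p = 0.00669). Of these, COX6B1, COX6A1, ATP5H, UQCRFS1 and UQCRH lost the call in at least 1 fit with a library left out.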

How the results depend on the processing

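Of 93 named calls of subunits, 93 held with a pseudocount of 0.1, 75 without the filter, 75 under TPM scaling, 89 under scaling without mitochondrially encoded genes, 90 with median-of-ratios scaling, 89 without trend and robust moderation and 77 with only the groups compared in the fit, and all 89 that could be tested held at a mean of at least 5 FPKM. Of 40 that could be set against the line's other empty vector 25 held and 12 were lost with the same sign. In 3 others, all with overexpression in SK-N-BE(2), the call was lost and the estimate changed sign: ATP5G1 (-0.11), ATP5O (-0.047) and COX6B1 (-0.032). The cause was not tested. Against that control the SK-N-BE(2) knockdown had 9 calls and the SH-SY5Y overexpression 7, beside 47.7% and 55.4% of all tested genes. With overexpression in SK-N-BE(2) the count was 6 without the filter, 9 under TPM scaling, 9 without mitochondrially encoded genes and 0 with only the groups compared. The shares of all genes called were 9.27%, 31.9%, 32.6% and 6.07%. In SH-SY5Y these settings gave 2, 2, 3 and 3, beside 11.9%, 32.5%, 30.2% and 33.4% of all genes. The count for the knockdown difference was 26 under TPM scaling, beside 56.0% of all genes. That for the overexpression difference was 4 without the filter and 4 under TPM scaling, beside 12.5% and 38.7%. Between the SK-N-BE(2) controls the count was 14 under TPM scaling, 14 without mitochondrially encoded genes and 14 with only the groups compared. The shares of all genes called were 39.2%, 33.7% and 35.3%. Between the SH-SY5Y controls it was 14 with only the groups compared, beside 41.4% of all genes. TPM scaling also moved the medians in the SK-N-BE(2) knockdown to -0.011 (complex II) and -0.094 (complex V), and in the SH-SY5Y knockdown to -0.16, -0.26, -0.45 and -0.24 for complexes II to V. TPM scaling shifted the all-gene median by over 0.1 in the knockdown difference alone among the 9 comparisons, from 0.01 to 0.20.

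Leaving out each library in turn gave 16 to 22 calls in the SK-N-BE(2) knockdown, 16 to 23 in the SH-SY5Y knockdown, 4 to 36 and 1 to 2 with overexpression in SK-N-BE(2) and SH-SY5Y, 14 to 17 and 3 to 29 for the differences between lines, 7 to 9 and 2 to 4 between the controls of SK-N-BE(2) and SH-SY5Y, and 31 to 32 between the lines. Over these fits 674 of 792 named calls held and 118 were lost, none turned.

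Same-numbered libraries did not deviate together in every pair. With overexpression in SK-N-BE(2) their correlations ran from -0.08 to 0.37, with a mean of 0.145 against -0.073 for differently numbered pairs. The labels do not say that equal numbers pair libraries, and shared handling was not tested. A replicate block gave 24 calls with overexpression in SK-N-BE(2), 2 with overexpression in SH-SY5Y and 17 for the overexpression difference. Without the block these were 19, 1 and 9, and all 93 named calls held under it.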
